A study of Mus musculus with 4 samples.

Results

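Sphingosine-1-phosphate is a signalling lipid, and 9 genes of its production, export, breakdown and reception were followed in mouse lung. They were picked by name from 47729 genes in the count files, with earlier results of the same comparison known. Expression was measured by RNA sequencing of polyA RNA in 4 libraries. The treated libraries (label Sugen-Hypoxic) combine low oxygen with Sugen, a drug that blocks VEGF receptors, which is a common rodent model of pulmonary hypertension, and the other libraries are labelled Normoxic. All 4 libraries carried the strain label BL/6, the genotype label Control (Rosa) and the tissue label lung, and their titles share the tag MSX1, which the labels do not explain. The series concerns mutations of the potassium channel gene KCNK3, and samples carrying them were not analysed here. The labels list several animals per library, read here as a pool. Both Sugen-hypoxia pools held 2 males, normoxic replicate 1 held 3 females, and normoxic replicate 2 held 1 female and 2 males. The sources used here do not give age, Sugen dose or length of hypoxia. Nothing in the labels says more about how the pools were made, so error terms measure only the spread between these pools, and treatment cannot be told apart from sex of the pool without assuming a linear effect of the male fraction.

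Sphingosine-1-phosphate is made from sphingosine inside cells by sphingosine kinases, leaves endothelial cells through the transporter Spns2 and is cut irreversibly by the lyase Sgpl1. Blood and lymph hold much of it and tissues little, and lymphocytes follow this gradient when they leave lymphoid organs. In the lung the lipid is best known for keeping the endothelial barrier tight through S1pr1, while S1pr2 and S1pr3 also act on smooth muscle and other mesenchymal cells, S1pr4 is mainly a receptor of leukocytes, and S1pr5 is best known from natural killer cells and patrolling monocytes.

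The widest difference was in the leukocyte receptors. S1pr5 was 4.88-fold lower and S1pr4 1.73-fold lower in Sugen-hypoxia than in normoxia, whereas S1pr1, S1pr2 and S1pr3 had group means within the spread of the pools. Sphk1 was 1.28-fold lower, Sphk2 and Sgpl1 lay close between groups, and Spns2 was 1.34-fold higher without passing the threshold. In edgeR's quasi-likelihood test over 18783 genes, at an adjusted p of 0.05, 3 of the 9 passed, all as lower (S1pr4, S1pr5 and Sphk1), and 0 as higher. The share of all tested genes past the same threshold was 11.5%, with 5.51% higher and 6.01% lower. At an unadjusted 0.05 the same test counted 1 of the 9 as higher and 3 as lower, and DESeq2 with its adjusted threshold gave the same numbers. Since the 9 genes were chosen with this contrast known, their differences are given as a description and nothing is read from the count. All 9 passed the expression filter. Fold changes use library sizes scaled by TMM factors and can differ slightly in sign from plain CPM means (counts per 1000000 gene counts).

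**Figure D1:**
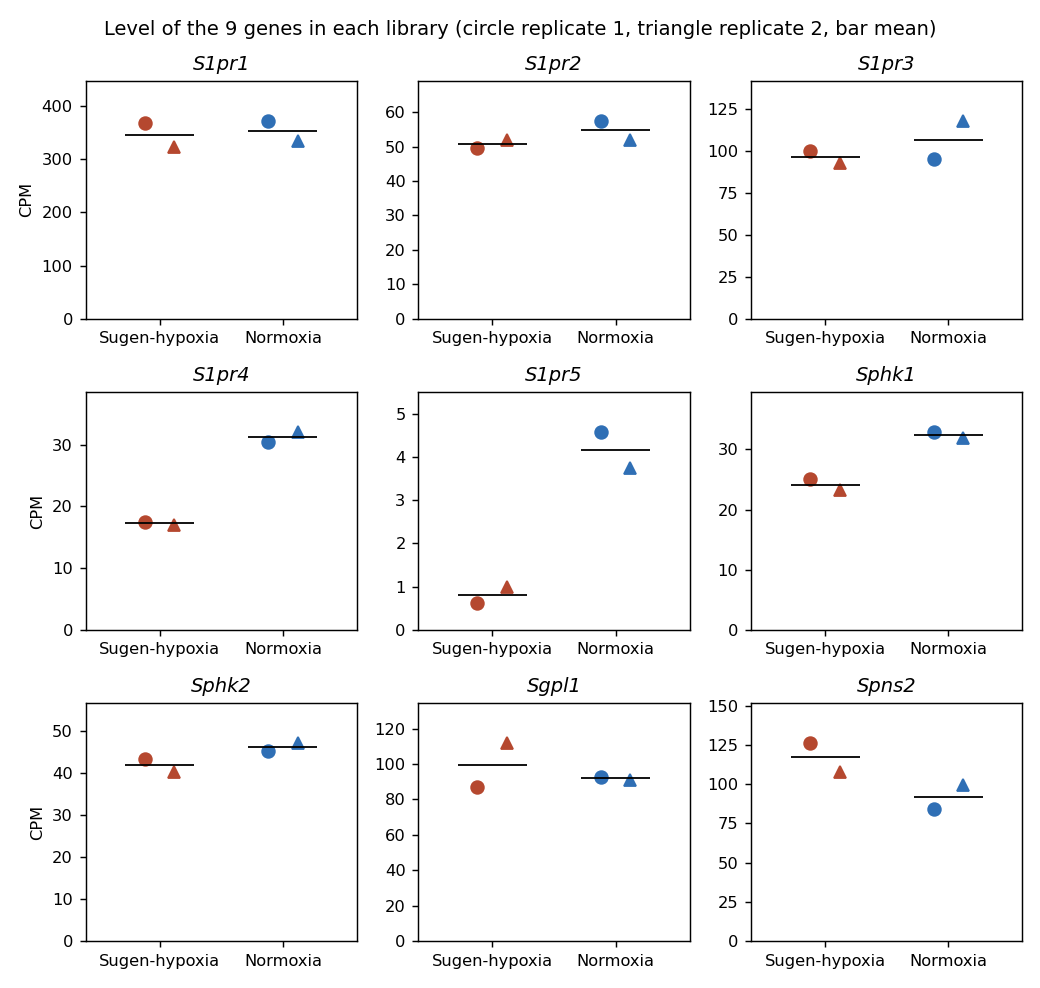
CPM of the 9 genes in each library, Sugen-hypoxia at left and normoxia at right of each panel; circles are replicate 1, triangles replicate 2 and bars the group means, with axes starting at 0. The Sugen-hypoxia points lie below both normoxic points for S1pr4, S1pr5, Sphk1 and Sphk2 and above them for Spns2.

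In CPM the libraries of the groups did not overlap for 5 of the 9 genes, 4 lower and 1 higher. Among all tested genes 61.3% did not overlap, 40% lower and 21.3% higher, so that with 2 pools a side such a separation is common.

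Of the kinases that make the lipid, Sphk1 is the cytosolic, growth factor responsive enzyme (ENSMUSG00000061878, GRCm38 chromosome 11, 116530925 to 116536674, plus strand). It was at 25.1 and 23.2 CPM in the Sugen-hypoxia pools, against 32.9 and 31.9 CPM in the normoxic pools. Both Sugen-hypoxia values lay below both normoxic ones, and the log2 fold change was -0.36 ± 0.08 (SE). The call was lost with unstranded counts, where the log2 fold change was -0.32, and without either normoxic pool or with the male fraction as a covariate, at -0.32, -0.39 and -0.29. The gene overlaps the antisense gene Gm29292 on the other strand, and of the reads in its exons 17.05% to 18.8% in Sugen-hypoxia and 16.9% to 17.7% in normoxia came from the opposite strand. These shares were similar in both groups. In CPM the opposite-strand reads were at 5.81 and 4.77 in Sugen-hypoxia, against 6.72 and 6.89 in normoxia. Gm29292 itself was lower than that, at 0.803 and 0.842 CPM in Sugen-hypoxia, against 1.34 and 1.24 CPM in normoxia. The source of the opposite-strand reads was not tested.

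Sphk2, the kinase found in nucleus and mitochondria as well (ENSMUSG00000057342, chromosome 7, 45709467 to 45718002, minus strand), was at 43.3 and 40.2 CPM in Sugen-hypoxia, against 45.1 and 47.1 CPM in normoxia. Its log2 fold change was -0.07 ± 0.07 and did not pass. Sphk2 overlaps Dbp, a circadian clock output gene, and the ribosomal protein gene Rpl18, both on the other strand. Reads from that strand made up 38.2% and 19.2% of those in Sphk2 in Sugen-hypoxia and 44.6% and 51.2% in normoxia. Dbp itself was at 72.3 and 23.1 CPM in Sugen-hypoxia, against 93.7 and 132 CPM in normoxia, and the library with the least Dbp also had the smallest opposite-strand share. With unstranded counts the log2 fold change of Sphk2 was -0.06. Ambiguous reads stayed out of the counts and may include those shared with Dbp or Rpl18, so this value is no check on the opposite-strand reads.

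Levels of different genes can be set beside each other only per length, here as CPM per kilobase of merged exons. On that scale Sphk2 stood above Sphk1 in every library. Sphk1 held 33.6% and 33.5% of the sum of both kinases in Sugen-hypoxia, against 38.9% and 37.1% in normoxia. As a share of the summed CPM of 6 fibroblast markers, Sphk1 was at 1.06% and 0.735% in Sugen-hypoxia and at 1.77% and 1.59% in normoxia. The fibroblast sum itself was 2360 and 3161 CPM in Sugen-hypoxia, against 1860 and 2006 CPM in normoxia, with 0 of 6 markers past the threshold (3 as higher at an unadjusted 0.05 in edgeR, 1 with DESeq2). The collagen genes Col1a1 and Col1a2 were at 772 and 1225 CPM and at 809 and 1182 CPM in Sugen-hypoxia, against 525 and 628 CPM and 566 and 677 CPM in normoxia. Together they made up the larger part of the fibroblast sum in every library. Of the other markers Pdgfra had a log2 fold change of 0.25, Dcn of -0.14, Lum of -0.07 and Tcf21 of -0.06, so the list had no common direction and its higher sum in Sugen-hypoxia came mainly from the collagens. The part of fibroblasts in the Sphk1 difference was not tested.

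Spns2, the exporter (ENSMUSG00000040447, chromosome 11, 72451638 to 72489904, minus strand), was at 126 and 108 CPM in Sugen-hypoxia, against 84.5 and 99.4 CPM in normoxia. The groups did not overlap, but the lower Sugen-hypoxia pool lay nearer to the higher normoxic pool than to the other Sugen-hypoxia pool. The log2 fold change was 0.42 ± 0.11 and did not pass, while it did with DESeq2, without an expression filter and without either Sugen-hypoxia pool. Markers of all endothelium summed to 6128 and 5264 CPM in Sugen-hypoxia and to 5073 and 5024 CPM in normoxia. Spns2 was 2.06% and 2.05% of that sum in Sugen-hypoxia, against 1.67% and 1.98% in normoxia. Markers of lymphatic endothelium, where Spns2 is also known to act, summed to 571 and 521 CPM in Sugen-hypoxia, against 412 and 359 CPM in normoxia. Of 6 such markers 5 were tested and 4 rose, among them Prox1, the lymphatic identity factor, at 15.6 and 16.5 CPM in Sugen-hypoxia against 5.88 and 5.36 CPM in normoxia, and the chemokine gene Ccl21a was at 0 in all 4 libraries. Multimapping reads stayed out of the counts, so this 0 need not mean that Ccl21a was not expressed. The other first-listed marker, the hyaluronan receptor Lyve1, was at 273 and 236 CPM in Sugen-hypoxia, against 249 and 214 CPM in normoxia, and did not pass. The part of these cells in the Spns2 difference was not tested. In whole lung, fewer cells of a type and less RNA per cell cannot be told apart, and the same holds for more.

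Sgpl1, the lyase (ENSMUSG00000020097, chromosome 10, 61098642 to 61147703, minus strand), was at 86.8 and 112 CPM in Sugen-hypoxia, against 92.7 and 90.9 CPM in normoxia. The Sugen-hypoxia pools lay on both sides of the normoxic ones. The log2 fold change of 0.18 ± 0.11 came down to 0.0028 without Sugen-hypoxia replicate 2, and reached 0.34, past the threshold, without Sugen-hypoxia replicate 1.

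**Figure D2:**
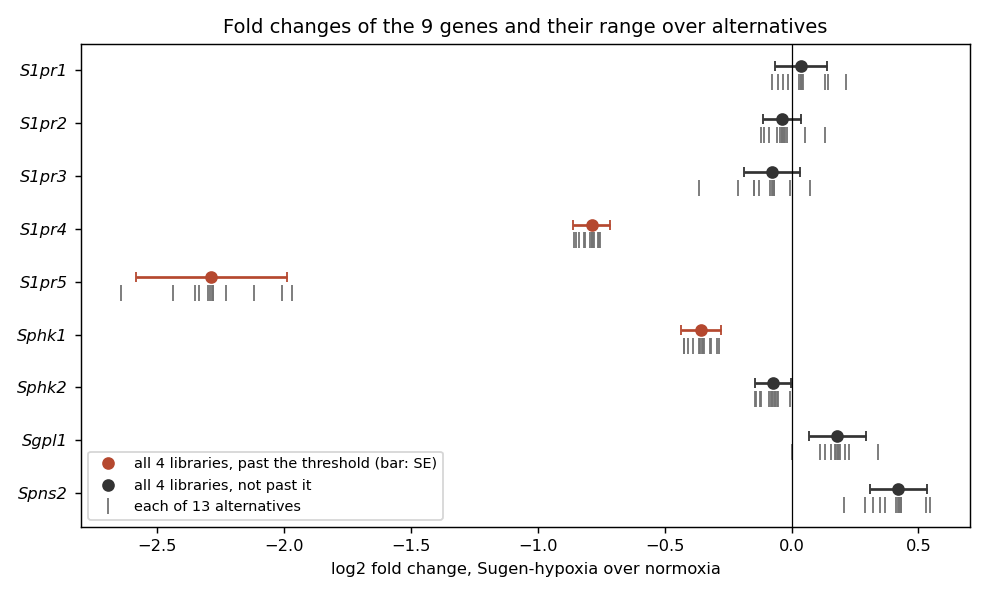
Log2 fold changes (Sugen-hypoxia over normoxia) of the 9 genes from all 4 libraries, with bars of 1 SE, and below each the values under 13 alternatives, which include leaving out each library. S1pr5, S1pr4, Sphk1 and Sphk2 stay below 0 and Spns2 and Sgpl1 above 0 under all 13, while S1pr1, S1pr2 and S1pr3 lie on both sides of 0.

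Among the receptors, S1pr1 couples to the inhibitory G protein Gi and is the main receptor of endothelium and of circulating lymphocytes (ENSMUSG00000045092, chromosome 3, 115710433 to 115715072, minus strand). It was at 368 and 322 CPM in Sugen-hypoxia, against 373 and 334 CPM in normoxia. The groups overlapped almost fully and the log2 fold change was 0.04 ± 0.10, turning to -0.015 under upper-quartile scaling and to -0.034 when libraries were scaled by size alone. As a share of the endothelial marker sum S1pr1 was at 6.01% and 6.13% in Sugen-hypoxia, against 7.35% and 6.64% in normoxia. Of the 10 endothelial markers 3 rose and 1 fell. The first-listed, the adhesion molecule gene Pecam1, was at 1081 and 929 CPM in Sugen-hypoxia against 821 and 850 CPM in normoxia and did not pass, while the endothelial cadherin gene Cdh5 was at 1809 and 1576 CPM against 1162 and 1197 CPM and rose (edgeR adjusted p = 0.0249). Eng, the marker that fell, was at 502 and 444 CPM in Sugen-hypoxia, against 854 and 787 CPM in normoxia. Its log2 fold change was -0.73. Of the 10 markers 8 had a positive and 2 a negative log2 fold change. The shares of S1pr1 and Spns2 in the endothelial sum therefore depend on Eng as well, and neither was computed without it.

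S1pr2, which couples to several classes of G protein (ENSMUSG00000043895, chromosome 9, 20962361 to 20976781, minus strand), was at 49.6 and 52.0 CPM in Sugen-hypoxia, against 57.5 and 51.9 CPM in normoxia. The log2 fold change was -0.04 ± 0.08. S1pr3, a receptor of smooth muscle, fibroblasts and endothelium (ENSMUSG00000067586, chromosome 13, 51408639 to 51422797, plus strand), was at 100.2 and 92.8 CPM in Sugen-hypoxia, against 95.6 and 118 CPM in normoxia. Its log2 fold change was -0.08 ± 0.11, and the mixed-sex normoxic pool stood above the other 3 libraries. In a fit that adds the share of males, with 1 residual degree of freedom, it was -0.36 and also did not pass. Smooth muscle markers summed to 1202 and 1303 CPM in Sugen-hypoxia, against 907 and 1017 CPM in normoxia, with 4 of 7 higher. Among them Acta2, the smooth muscle actin, was at 369 and 415 CPM in Sugen-hypoxia against 238 and 289 CPM in normoxia and rose, and the myosin gene Myh11, at 303 and 343 CPM against 281 and 312 CPM, did not pass. S1pr3 was 8.34% and 7.12% of the smooth muscle sum in Sugen-hypoxia, against 10.5% and 11.6% in normoxia, and S1pr2 4.12% and 3.99% against 6.35% and 5.10%. Of the pericyte markers, the proteoglycan gene Cspg4 was at 80.2 and 70.1 CPM in Sugen-hypoxia, against 46.8 and 54.9 CPM in normoxia, and rose, and the growth factor receptor gene Pdgfrb, at 273 and 255 CPM against 255 and 259 CPM, did not pass. Against the pericyte sum, in which 3 of 5 markers rose, S1pr3 stood at 12.1% and 13.1% in Sugen-hypoxia and at 16.1% and 19.4% in normoxia. These receptors thus kept their CPM while the mural marker sums were higher, and the shares show unequal change only.

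S1pr4, a receptor of lymphocytes, dendritic cells and neutrophils (ENSMUSG00000044199, chromosome 10, 81497747 to 81500132, minus strand), was at 17.41 and 17.03 CPM in Sugen-hypoxia, against 30.3 and 32.1 CPM in normoxia. Both groups were tight and far apart, with a log2 fold change of -0.79 ± 0.07. It ran from -0.86 to -0.76 over 13 alternatives. A total of 1636 genes of the 18783 had a more negative log2 fold change.

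S1pr5, which natural killer cells need to leave lymph nodes and bone marrow (ENSMUSG00000045087, chromosome 9, 21242912 to 21248443, minus strand), was at 0.628 and 0.995 CPM in Sugen-hypoxia, against 4.59 and 3.74 CPM in normoxia. These values rest on 36 and 65 reads in Sugen-hypoxia and on 308 and 218 reads in normoxia. All 4 libraries were low but the groups stood far apart, with a log2 fold change of -2.29 ± 0.30 and a range of -2.64 to -1.97 over 13 alternatives. A more negative value was found for 81 genes of the 18783, which describes a gene picked with this contrast known. Both S1pr4 and S1pr5 lost their call without normoxic replicate 1, without normoxic replicate 2 and with the male fraction as a covariate, at log2 fold changes of -0.81, -0.76 and -0.85 for S1pr4 and -2.12, -2.44 and -1.97 for S1pr5.

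Markers of the cells that carry these receptors were lower in the same libraries. Of 8 natural killer cell markers 7 fell and 0 rose (at an unadjusted 0.05, 8 and 0; with DESeq2, 7 and 0), with a median log2 fold change of -1.86 against -0.0039 over all tested genes. Ncr1, an activating receptor restricted to natural killer cells and some innate lymphoid cells, was at 0.855 and 0.964 CPM in Sugen-hypoxia, against 4.77 and 3.37 CPM in normoxia, and the receptor gene Klrb1c was at 1.31 and 1.03 CPM against 4.96 and 4.33 CPM. Tbx21, the transcription factor T-bet that mouse natural killer cells need for S1pr5 expression, was at 0.628 and 0.918 CPM in Sugen-hypoxia, against 2.77 and 2.97 CPM in normoxia, and fell by 1.82 on the log2 scale (edgeR adjusted p = 0.0185). The 8 markers summed to 10.5 and 11.4 CPM in Sugen-hypoxia, against 51.2 and 40.9 CPM in normoxia, and 0 of them were at 0 in all libraries. S1pr5 was 5.96% and 8.75% of that sum in Sugen-hypoxia and 8.97% and 9.14% in normoxia, so the ratio of the group means of this share was 0.812. Gzma, the largest of the 8 in every library, was at 3.04 and 3.66 CPM in Sugen-hypoxia, against 20.9 and 14.9 CPM in normoxia. It also had the most negative log2 fold change of the list, at -2.35. The share and its ratio therefore depend on this gene, and neither was computed without it. The part of natural killer cells in the S1pr5 difference was not tested.

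**Figure D3:**
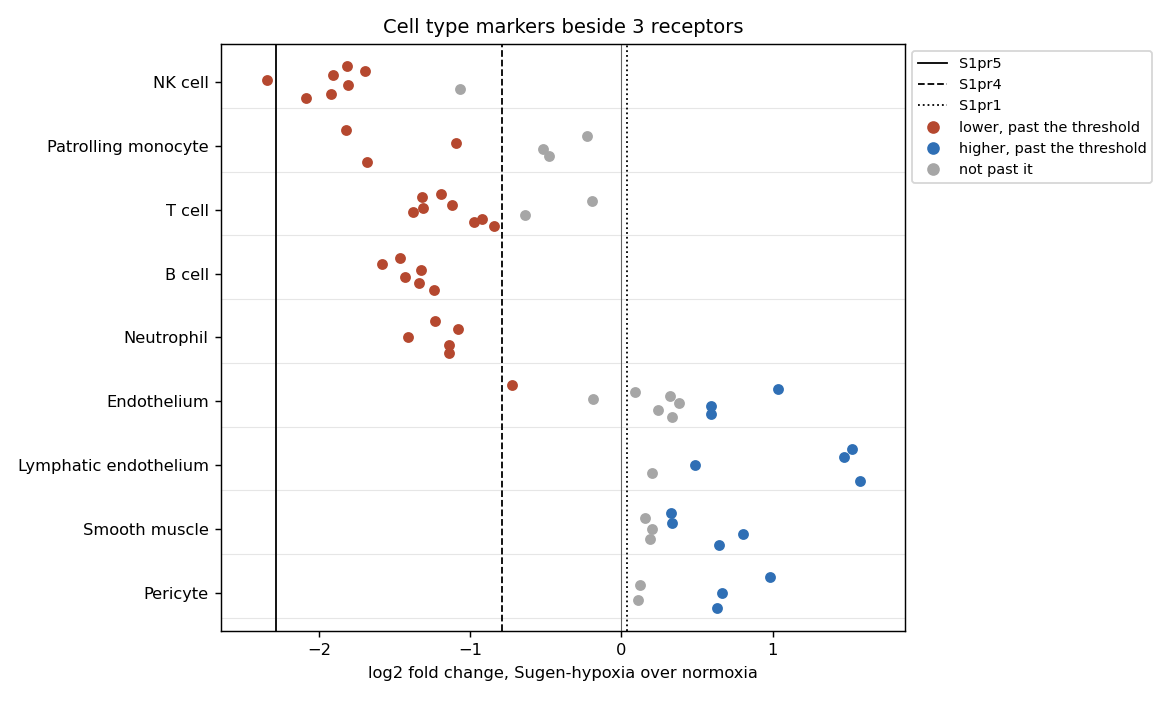
Log2 fold changes (Sugen-hypoxia over normoxia) of the tested markers of 9 cell types, 1 point a gene, with vertical lines at S1pr5, S1pr4 and S1pr1. All tested markers of the 5 leukocyte lists lie below 0, and those of lymphatic endothelium, smooth muscle and pericytes above 0. The natural killer cell list has the median nearest to S1pr5, at -1.86, and runs from -2.35 to -1.07. It overlaps the patrolling monocyte list, in which Adgre4 is at -1.82.

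Patrolling monocytes, which also use S1pr5 in mice, had 3 of 6 markers lower and 0 higher. The triggering receptor-like gene Treml4 was at 3.16 and 3.46 CPM in Sugen-hypoxia, against 12.5 and 9.70 CPM in normoxia, and Nr4a1, the factor these monocytes depend on, at 70.3 and 44.9 CPM against 83.8 and 84.8 CPM without passing. The sum of this list is mostly Ace, an enzyme that lung endothelium also makes, and was 1693 and 1530 CPM in Sugen-hypoxia, against 2090 and 2001 CPM in normoxia. S1pr5 was 0.0371% and 0.0650% of it in Sugen-hypoxia, against 0.220% and 0.187% in normoxia.

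For S1pr4, T cell markers fell in 8 of 10 cases, B cell markers in 6 of 6 and neutrophil markers in 5 of 5, with 0 higher in each (0 also at an unadjusted 0.05 and with DESeq2). The T cell receptor component gene Cd3e was at 4.15 and 4.41 CPM in Sugen-hypoxia, against 8.56 and 7.51 CPM in normoxia, and Cd3d was at 2.42 and 2.45 CPM against 5.36 and 4.71 CPM. The B cell gene Ms4a1, which encodes CD20, was at 13.5 and 21.1 CPM in Sugen-hypoxia, against 50.02 and 41.96 CPM in normoxia. The calprotectin genes S100a8 and S100a9 were at 51.0 and 38.7 CPM and at 79.7 and 61.0 CPM in Sugen-hypoxia, against 84.7 and 123 CPM and 139 and 188 CPM in normoxia. The T cell list summed to 91.2 and 98.5 CPM in Sugen-hypoxia, against 200.1 and 200.7 CPM in normoxia, and the neutrophil list to 231 and 176 CPM against 410 and 559 CPM. S1pr4 was 19.1% and 17.3% of the T cell sum in Sugen-hypoxia, against 15.16% and 15.98% in normoxia, and 7.55% and 9.70% of the neutrophil sum against 7.39% and 5.73%. Its share of these markers was thus slightly higher in Sugen-hypoxia while its own CPM was lower, and the part of these cells in the difference was not tested.

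Per kilobase of merged exons, S1pr1 was the leading receptor in every library and S1pr5 the lowest. In CPM per kilobase S1pr1 was at 113 ± 10.6 in Sugen-hypoxia and 116 ± 9.08 in normoxia (SD, n = 2 each). S1pr3 followed at 21.6 ± 1.18 in Sugen-hypoxia and 23.96 ± 3.61 in normoxia. S1pr4 was at 7.22 ± 0.112 and S1pr2 at 6.37 ± 0.218 in Sugen-hypoxia, a close pair, while in normoxia S1pr4 was at 13.1 ± 0.511 and S1pr2 at 6.86 ± 0.505. With the length of the longest transcript S1pr2 moved above S1pr4 in Sugen-hypoxia, at 7.94 ± 0.271 in CPM per kilobase, so the order of that pair depends on the length used. S1pr5 was at 0.325 ± 0.104 in Sugen-hypoxia and 1.67 ± 0.239 in normoxia. Of the sum of the 5 receptors S1pr1 made up 76.9% and 75.2% in Sugen-hypoxia, against 73.9% and 69.6% in normoxia. S1pr4 held 4.65% and 5.07% in Sugen-hypoxia, against 7.68% and 8.53% in normoxia. Among the other members Spns2 stood highest, at 28.7 ± 3.21 CPM per kilobase in Sugen-hypoxia and 22.5 ± 2.59 in normoxia, followed by Sgpl1, at 16.2 ± 2.90 and 14.95 ± 0.209, Sphk2, at 10.03 ± 0.529 and 11.1 ± 0.343, and Sphk1, at 5.06 ± 0.275 and 6.79 ± 0.149.

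**Figure D4:**
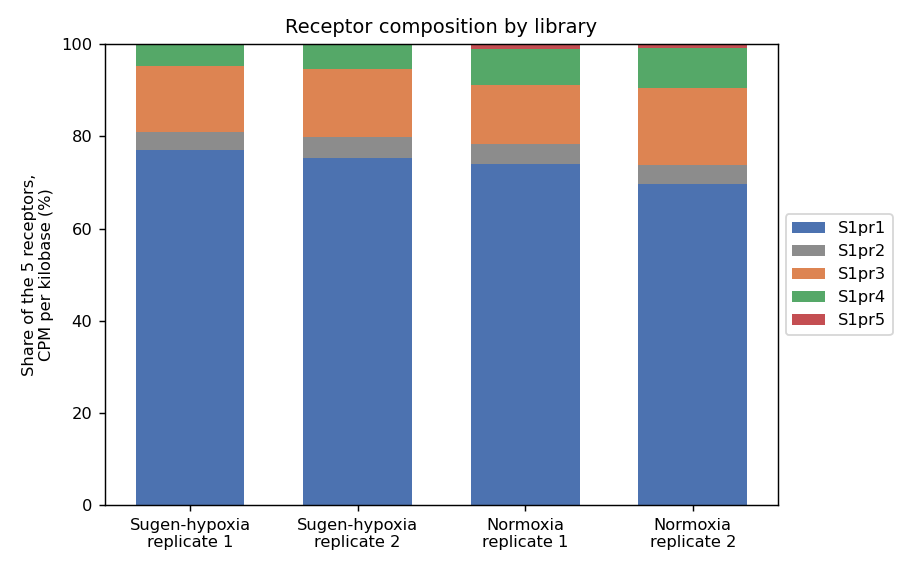
Share of each receptor in the sum of the 5 receptors in CPM per kilobase of merged exons, for each library, in percent. S1pr1 takes 75.2% to 76.9% in Sugen-hypoxia and 69.6% to 73.9% in normoxia, and the S1pr5 band is visible in normoxia, where it is 0.951% to 1.11%, against 0.160% to 0.283% in Sugen-hypoxia.

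The promoters of the lowered receptors S1pr5 and S1pr4 are shown with that of S1pr3, whose groups overlapped, because the windows differ in base composition. RefSeq windows (GRCm38.p6) run from 250 bases before to 50 after an annotated start, and 8 of the 9 genes had at least 1 among 32851. Capitals mark the core of the hypoxia-inducible factor site (ACGTG) and the GC box bound by Sp factors (GGGCGG), on either strand. The S1pr5 window is chr9:21248394-21248693 on the minus strand, that of S1pr4 chr10:81500088-81500387 on the minus strand and that of S1pr3 chr13:51408368-51408667 on the plus strand.
S1pr5: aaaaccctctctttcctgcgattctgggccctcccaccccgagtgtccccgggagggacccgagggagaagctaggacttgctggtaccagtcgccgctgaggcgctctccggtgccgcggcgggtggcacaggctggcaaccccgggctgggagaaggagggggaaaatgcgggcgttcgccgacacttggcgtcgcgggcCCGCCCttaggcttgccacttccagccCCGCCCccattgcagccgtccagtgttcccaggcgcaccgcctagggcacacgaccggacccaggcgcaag
S1pr4: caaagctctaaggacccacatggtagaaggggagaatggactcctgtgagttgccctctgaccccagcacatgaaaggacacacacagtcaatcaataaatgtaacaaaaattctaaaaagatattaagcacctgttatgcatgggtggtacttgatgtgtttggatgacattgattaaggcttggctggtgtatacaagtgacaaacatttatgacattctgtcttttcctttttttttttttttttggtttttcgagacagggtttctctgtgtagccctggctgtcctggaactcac
S1pr3: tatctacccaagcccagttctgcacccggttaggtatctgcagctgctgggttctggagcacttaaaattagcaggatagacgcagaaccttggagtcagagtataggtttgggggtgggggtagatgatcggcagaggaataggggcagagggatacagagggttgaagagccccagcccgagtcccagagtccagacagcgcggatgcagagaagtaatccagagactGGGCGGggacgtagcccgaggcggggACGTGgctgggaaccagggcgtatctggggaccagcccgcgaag
The S1pr5 window was 69.3% G and C with 27 CpG dinucleotides, and the S1pr4 window 41% with 1, against medians of 52.7% and 7 over all windows. S1pr3 had 59% and 14 CpG dinucleotides. The S1pr5 window held 2 GC boxes and the S1pr3 window 1, the S1pr4 window 0, and 35.7% of all windows held at least 1. The ACGTG core was in the S1pr3 window and in neither of the lowered receptors' windows, and 19.6% of all windows held it. Among the members it was also in the Sgpl1 window, in 1 of the Sphk2 windows and in 2 overlapping Sphk1 windows. The T-box core AGGTGT was in 0 of the 13 member windows, against 13.7% of all windows, on either strand. No base of a member window belonged to more than 1 of these motifs. These matches describe letters in the windows and say nothing of binding.

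The genes whose centred profile over the 4 libraries lay nearest to that of S1pr5, by Euclidean distance of log2(CPM + 0.5) over 13368 autosomal protein-coding genes, were Ppp2r2c, Adgre4 and Ccl5, at distances of 0.0713, 0.125 and 0.125. Ppp2r2c, a regulatory subunit of protein phosphatase 2A, was at 1.36 and 2.11 CPM in Sugen-hypoxia, against 8.22 and 6.96 CPM in normoxia. Adgre4, an adhesion receptor of myeloid cells that is also on the patrolling monocyte list, was at 3.87 and 4.74 CPM against 17.7 and 14.2 CPM, and Ccl5, a chemokine of cytotoxic lymphocytes among others, at 5.60 and 7.41 CPM against 25.13 and 20.03 CPM. With 4 libraries, such profiles follow mainly the difference between groups.

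Around the members, 74 other genes of sphingolipid metabolism and lysophospholipid signalling were read from the same fit, of which 72 were tested. Of these 10 rose, 7 fell and 55 did not pass, 23.6% called against the 11.5% over all genes, with a median log2 fold change of 0.07. Under upper-quartile scaling the split became 6 higher and 8 lower, against 799 and 1424 of all genes. Scaling by library size alone gave 6 and 11, against 765 and 1584 of all genes, where TMM factors gave 1035 and 1128.

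In de novo synthesis, which makes the sphingoid base, 2 of 17 genes rose and 0 fell (2 lower at an unadjusted 0.05, 0 with DESeq2). Kdsr, the reductase of the second step, was at 69.3 and 57.0 CPM in Sugen-hypoxia, against 46.3 and 46.0 CPM in normoxia, a log2 fold change of 0.52 ± 0.11 (edgeR adjusted p = 0.0378). Sptlc2, a subunit of the first and rate-limiting enzyme, was at 229 and 239 CPM against 205 and 196 CPM, a log2 fold change of 0.29 ± 0.06. The ceramide synthases Cers1 to Cers6 did not pass, nor did the desaturases Degs1 and Degs2.

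In ceramide and sphingosine turnover 2 of 13 tested genes rose and 1 fell. Acer3, an alkaline ceramidase that releases sphingosine, was at 74.1 and 72.2 CPM in Sugen-hypoxia, against 56.5 and 55.2 CPM in normoxia, and rose by 0.46 on the log2 scale (edgeR adjusted p = 0.0119). Asah2, the neutral ceramidase, rose by 0.31, and Sgms2, a sphingomyelin synthase, fell to 13.6 and 14.6 CPM in Sugen-hypoxia, against 20.8 and 19.2 CPM in normoxia. Acer1, a ceramidase of skin, had 0 counts in all libraries.

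Phosphatases can return sphingosine-1-phosphate to sphingosine. Sgpp2, one of the pair specific for it, was at 73.1 and 80.4 CPM in Sugen-hypoxia, against 54.7 and 56.0 CPM in normoxia, and rose by 0.54 ± 0.06 on the log2 scale (edgeR adjusted p = 0.00956). Its partner Sgpp1 was at 64.2 and 62.7 CPM against 65.6 and 66.1 CPM, a log2 fold change of 0.02. Plpp3, a lipid phosphate phosphatase of the cell surface, was at 292 and 258 CPM in Sugen-hypoxia, against 359 and 350 CPM in normoxia. It did not pass, nor did the other 3 genes of this list. Plpp3 did pass as lower with DESeq2, with library size alone and without an expression filter.

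Of 7 carriers and exporters 6 were tested and 0 passed (3 as lower and 0 as higher at an unadjusted 0.05, 0 with DESeq2). Mfsd2b, the exporter of red cells and platelets, was at 2.49 and 3.47 CPM in Sugen-hypoxia, against 4.59 and 5.67 CPM in normoxia. It passed without an expression filter. Apom, the carrier of the lipid on plasma lipoproteins and a product mainly of liver and kidney, was at 0.105 and 0.0306 CPM against 0.0447 and 0.137 CPM and was not tested.

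Of 21 signalling partners of the receptors 4 rose, 4 fell and 13 did not pass. Cd69, a membrane protein that binds S1pr1 and takes it off the lymphocyte surface, was at 3.82 and 4.97 CPM in Sugen-hypoxia, against 11.1 and 8.97 CPM in normoxia, and fell by 1.12 on the log2 scale (edgeR adjusted p = 0.0221). Arrb1, an arrestin that uncouples activated receptors, was at 737 and 664 CPM in Sugen-hypoxia, against 489 and 476 CPM in normoxia, and rose by 0.61 ± 0.09. Grk2, the kinase that marks receptors for arrestins, was at 132 and 132 CPM against 177 and 175 CPM and fell by 0.34. Arhgef12, a guanine nucleotide exchange factor, was at 435 and 408 CPM against 565 and 569 CPM and fell by 0.36. Rock2, a serine/threonine kinase, rose by 0.34 and Gnai1, a Gi subunit, by 0.35. Klf2, the factor that drives S1pr1 transcription in lymphocytes, was at 296 and 226 CPM in Sugen-hypoxia, against 228 and 186 CPM in normoxia. Its groups overlapped and its log2 fold change of 0.41 did not pass, while it did with DESeq2 and without an expression filter.

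Among 9 genes of the related receptors for lysophosphatidic acid and cannabinoids and of the enzyme Enpp2, 1 rose and 2 fell. Lpar6 was at 27.5 and 25.1 CPM in Sugen-hypoxia, against 15.9 and 15.3 CPM in normoxia, and rose by 0.82 ± 0.09 (edgeR adjusted p = 0.00832). Lpar3 was at 14.7 and 10.9 CPM against 24.7 and 24.6 CPM and fell by 0.88, and Cnr2, the cannabinoid receptor of leukocytes, was at 10.36 and 11.98 CPM against 18.8 and 20.9 CPM and fell by 0.76. Cnr2 thus fell by about as much as S1pr4, and the leukocyte markers given above were lower in the same libraries.

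**Figure D5:**
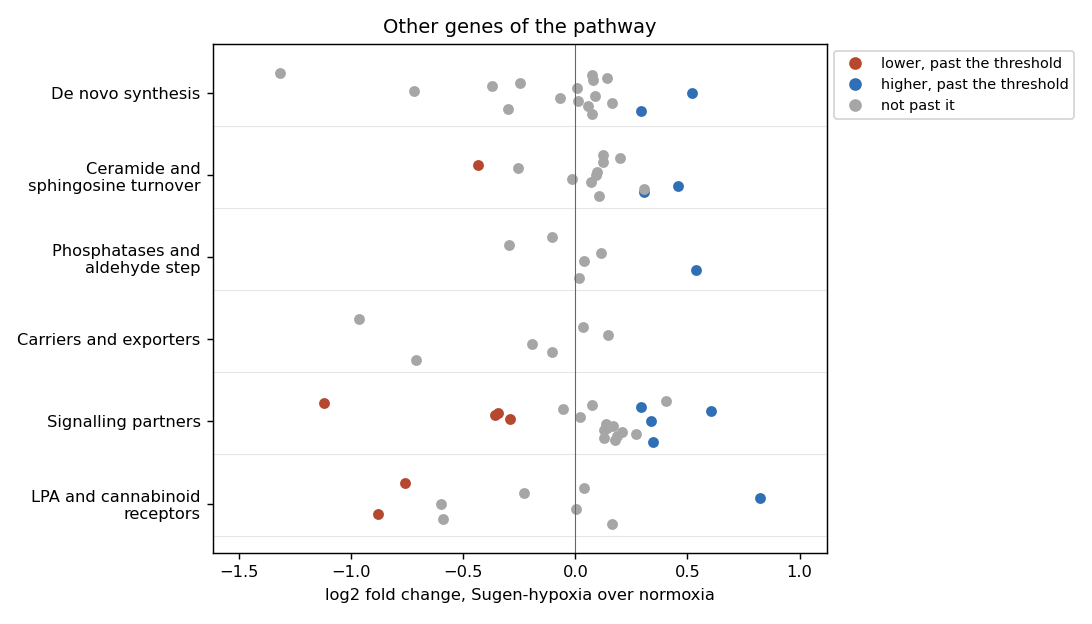
Log2 fold changes (Sugen-hypoxia over normoxia) of the 72 tested genes of 6 pathway lists, 1 point a gene, coloured by whether the gene passed the threshold. Most points lie within 0.5 of 0, and the called genes farthest from 0 are Cd69 below and Lpar6 above.

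Without normoxic replicate 1 or normoxic replicate 2, 0 pathway genes and 0 of the 9 members passed in edgeR, with 19 and 17 pathway genes and 3 and 4 members at an unadjusted 0.05. In the same fits 25 and 113 of all genes passed, against 2163 with all 4 libraries, so the loss was general and not a result about these genes.

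Over the 4 libraries used here, gene counts per library ran from 57319562 to 67135829. The lung markers Sftpc and Sftpb, both surfactant genes, were at 12003 and 11239 CPM and 3758 and 3784 CPM in Sugen-hypoxia, against 11773 and 11585 CPM and 4565 and 4660 CPM in normoxia. The extraction text names kidneys, but 5 kidney markers summed to 0.192 and 0.275 CPM in Sugen-hypoxia and 0.775 and 0.687 CPM in normoxia, with Umod at 0 in 3 of the 4 libraries and the transporter gene Slc12a1 at 0 in both Sugen-hypoxia pools, against 0.0298 and 0.0687 CPM in normoxia. Sex-linked genes followed the pool labels, with Xist at 0.488 and 0.505 CPM in Sugen-hypoxia, against 503 and 153 CPM in normoxia, and the Y-linked Ddx3y at 107 and 103 CPM against 0.194 and 58.8 CPM.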

How the data were processed

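For each library the authors deposited a file of unnormalised gene counts. STAR 2.5.1b, HTSeq and the build GRCm38.p4 are named in the submitters' processing notes without the annotation or the strandedness. Counts antisense to read 1 were 20.9 to 24.9 times the sense counts, so that column was used. Symbols, coordinates and exon lengths came from GENCODE release M21, which matched 47310 of 47729 identifiers. Rows for unmapped, multimapping, unassigned and ambiguous reads (6.45% to 7.55%, 4.50% to 4.54%, 7.73% to 9.98% and 1.10% to 1.13% of reads) stayed out. In the shallowest library 1 CPM equals 57.3 reads.

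Genes kept by filterByExpr, 18783 in all, were tested with edgeR 4.0.16 (quasi-likelihood, TMM factors, group as the only term, R 4.3.3) and adjusted by Benjamini-Hochberg. DESeq2 1.42.0 and limma 3.58.1 served as alternatives. Standard errors were derived from the F statistic. The fit was tested on simulated counts for Sugen-hypoxia against normoxia (18783 genes, 200 of them changed) and recovered 36.7% of 1.5-fold, 59.7% of 2-fold and 86.1% of 4-fold changes, with 5.01% of calls false. The simulated spread depended only on a gene's level, and no effect of sex was put in. These shares therefore describe the simulated counts and cannot be taken as those of the real calls.

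The members and gene lists were chosen with earlier results of these data known and so were the motifs. Named were all 9 members, up to 6 called genes of each pathway list by size of change plus Sgpp1, Plpp3, Apom, Mfsd2b, Klf2 and Cd69, the first 2 genes of each marker list (1 of them is not reported here), and the 3 genes nearest to a member that changed at least 2-fold. Tbx21, Gzma, Pdgfra, Dcn, Lum, Tcf21, Dbp, Rpl18, Gm29292, Eng, Ace and Ccl21a were added after their values were seen. Acer1, Cers1 to Cers6, Degs1 and Degs2 were also named outside these rules.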

Additional observations from a re-analysis of the deposited data

How the results depend on the processing

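Each alternative changed 1 choice of the fit for the 9 members, the pathway genes and all genes, except DESeq2, which brings its own test, scaling and filter. Without an expression filter 3657 genes passed, against 2163. With the male fraction as a covariate 11 of all genes passed in edgeR, and 0 pathway genes and 0 members (9 and 2 at an unadjusted 0.05). Leaving out 1 library gave 25 to 5101 genes, 0 to 31 pathway genes and 0 to 5 members, with the low ends without a normoxic pool and the high ends without a Sugen-hypoxia pool; the cause was not tested. Of 117 values of members under alternatives 95 kept direction and side of the threshold, 10 lost the call, 5 gained it and 7 changed sign. Those that changed sign were S1pr1 at -0.015 with upper-quartile factors, -0.034 with library size alone and -0.0766 to 0.143 with a library left out, S1pr2 at 0.13 with the male fraction and -0.122 to 0.0536 with a library left out, and S1pr3 at -0.21 to 0.0729 with a library left out. With the longest transcript as length, mean levels in CPM per kilobase over the 4 libraries moved to 8.25 for S1pr2, 6.96 for Sphk1, 12.4 for Sphk2, 21.9 for Sgpl1 and 32.3 for Spns2, and the cause is the shorter length. Depth limits S1pr5 most, with 36 reads in its lowest library. No paired analysis was possible because the labels carry no replicate numbers, and the numbers 1 and 2 used here only name the libraries of a group.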

Other observations

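Red cells and platelets are main sources of sphingosine-1-phosphate in plasma, and their markers give no common direction here. The haemoglobin genes Hbb-bs and Hba-a1 were at 467 and 214 CPM in Sugen-hypoxia replicate 1 and at 195 and 87.1 CPM in replicate 2, against 206 and 87.9 CPM in normoxic replicate 1 and 227 and 92.1 CPM in normoxic replicate 2, so that 1 Sugen-hypoxia pool stood above the other 3 libraries. The platelet gene Pf4 was at 8.98 and 18.5 CPM in Sugen-hypoxia, against 5.14 and 8.86 CPM in normoxia, and Ppbp at 7.31 and 7.88 CPM against 6.91 and 19.6 CPM. Of the 4 erythroid and 4 platelet markers 0 passed in edgeR (0 and 1 at an unadjusted 0.05, 0 and 0 with DESeq2).

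Markers of cell types not set beside a member were as follows. Of 3 classical monocyte markers 1 fell, the chemokine receptor gene Ccr2, at 21.5 and 24.4 CPM in Sugen-hypoxia, against 57.4 and 50.9 CPM in normoxia, while Ly6c2, at 8.08 and 9.90 CPM against 14.6 and 11.7 CPM, did not pass. Of 4 mast cell markers 1 fell, and the protease genes Cpa3, at 0.680 and 0.337 CPM against 1.07 and 0.704 CPM, and Mcpt4, at 0.244 and 0.566 CPM against 0.715 and 0.344 CPM, did not pass. Of 6 arterial endothelium markers 1 rose and 3 fell, and the connexin genes Gja5, at 56.6 and 51.3 CPM in Sugen-hypoxia against 55.4 and 50.4 CPM in normoxia, and Gja4, at 79.6 and 63.7 CPM against 54.0 and 56.6 CPM, did not pass. Of the lung epithelium and kidney markers 0 of 5 and 0 of 2 tested passed in edgeR (1 and 2 as lower at an unadjusted 0.05, 2 and 0 with DESeq2).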
